A study of Mus musculus with 6 samples.

Results

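The 6 genes *Chd7*, *Phf14*, *Ing3*, *Rnf20*, *Topors* and *Casp8ap2*, which encode regulators that act in the nucleus, were compared between UN-SCC679 and UN-SCC680, 2 mouse cell lines of lung squamous carcinoma (LUSC). They were chosen by function and by place, as genes of the first 58.6 Mb of chromosome 4 or the first 29.5 Mb of chromosome 6, and all 6 were found among the 1144 rows of these segments and the 55359 rows of the whole table. *Chd7*, *Phf14*, *Rnf20* and *Casp8ap2* rose in UN-SCC680, by 1.33-fold to 1.56-fold when libraries were scaled on all tested rows. *Ing3* (1.02-fold) and *Topors* (0.927-fold) did not pass the threshold. Those 4 of 6 stand against 30.4% of all tested rows that differed between the lines at an adjusted p under 5e-05, with 15.3% higher and 15.2% lower in UN-SCC680. In the 2 segments 53.9% of tested rows differed, 38.5% higher and 15.5% lower. On the chromosome 4 segment 54.3% differed (42.9% higher, 11.4% lower), and on the chromosome 6 segment 52.8% did (25.8% higher, 27.0% lower). At an adjusted p under 0.05, which *Topors* also passed with all 6 libraries, 58.4% of all tested rows differed.

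Both lines come from LUSC tumors that N-nitroso-tris-chloroethylurea (NTCU), a carcinogen painted on the skin, had induced in A/J mice. Both were cultured and later grown as grafts, first in Rag2-/- IL2Rg-/- hosts, which lack lymphocytes, and next in the parental strain, and polyA RNA of each line was sequenced in 3 libraries. The labels give strain A/J and no treatment for both groups, and with 1 line in each, what is particular to a line and what is particular to its tumor cannot be told apart. The labels do not say whether the libraries of a line are separate cultures, and p-values measure only the spread between these libraries.

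Chromatin regulators set how tightly DNA is packed and which genes can be read. Remodelers such as *Chd7* use ATP to move nucleosomes, readers such as *Ing3* and *Phf14* bind histone tails through PHD fingers, and ligases such as *Rnf20* attach ubiquitin to histones as transcription proceeds. *Topors* joins ubiquitin and SUMO to nuclear proteins, and the product of *Casp8ap2*, also called FLASH, acts in the processing of histone mRNA during DNA replication. Genes of this class are often mutated in human squamous tumors.

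The segments were used because gene positions in the table match those of the GRCm38 genome there and mostly not elsewhere. Of the 559 segment rows that could be placed by symbol on RefSeq GRCm38.p6, 376 (67.3%) began or ended within 10 bases of the RefSeq gene, against 0.410% of 22676 rows outside. A total of 5 of the 6 genes met this limit. *Phf14* did not, with a start 83 bases and an end 18952 bases from the RefSeq gene. Libraries held 3568293 to 4363229 counts in UN-SCC679 and 4242716 to 4381885 in UN-SCC680, and the 6 genes together held 8321 to 10025 and 11797 to 12171 of these. The segments took 14.2% to 14.3% of the counts in UN-SCC679 and 12.4% in each UN-SCC680 library at the same precision. The identity of the cultures could not be read, since 0 of 6 squamous, 0 of 3 adenocarcinoma and 0 of 3 immune markers lie in the segments, and of 8 fibroblast markers *Col1a2* alone does. *Col1a2*, a collagen gene, fell from 28061 ± 1224 CPM (normalized counts scaled to library size) to 2267 ± 94.2 (SD, n = 3 per line), and its part in the values below was not tested. In bulk RNA, fewer cells of a type and less RNA per cell cannot be told apart.

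Sequence before the transcription start was available from RefSeq (GRCm38.p6) for 5 of the 6 genes. It is shown for the 4 whose start lies within 21 bases of the table's gene boundary, with 2 genes that rose and 2 that did not pass the threshold. The *Rnf20* entry begins 6.62 kb inside the gene and is not shown. Each line gives 250 bases that end just before the start, in the direction of the gene, and capitals mark the letters of the motifs named after them. The *Casp8ap2* sequence is chr4:32615220-32615469 (+ strand), that of *Phf14* is chr6:11907579-11907828 (+ strand), that of *Ing3* is chr6:21949321-21949570 (+ strand), and that of *Topors* is chr4:40269842-40270091 (- strand).
Casp8ap2: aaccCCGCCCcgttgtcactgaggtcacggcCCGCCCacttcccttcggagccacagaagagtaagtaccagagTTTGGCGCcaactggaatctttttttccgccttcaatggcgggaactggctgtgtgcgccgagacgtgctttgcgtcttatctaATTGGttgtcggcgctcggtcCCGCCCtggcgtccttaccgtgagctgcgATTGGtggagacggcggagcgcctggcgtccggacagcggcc
Phf14: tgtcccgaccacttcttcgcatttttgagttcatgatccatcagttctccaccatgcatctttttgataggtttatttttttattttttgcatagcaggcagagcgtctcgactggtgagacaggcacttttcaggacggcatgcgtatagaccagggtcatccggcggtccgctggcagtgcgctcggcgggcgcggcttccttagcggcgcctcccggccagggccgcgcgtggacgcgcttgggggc
Ing3: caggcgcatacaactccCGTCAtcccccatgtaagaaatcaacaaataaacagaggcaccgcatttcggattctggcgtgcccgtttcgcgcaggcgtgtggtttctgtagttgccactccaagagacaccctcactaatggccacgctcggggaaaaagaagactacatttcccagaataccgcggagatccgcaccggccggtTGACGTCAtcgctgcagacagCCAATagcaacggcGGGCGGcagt
Topors: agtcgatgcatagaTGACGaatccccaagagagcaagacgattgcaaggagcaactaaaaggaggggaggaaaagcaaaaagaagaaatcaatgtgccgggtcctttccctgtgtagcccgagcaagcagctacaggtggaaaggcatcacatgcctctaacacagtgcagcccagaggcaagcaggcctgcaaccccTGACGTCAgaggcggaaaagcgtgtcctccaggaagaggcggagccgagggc

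In all, 7 motifs, chosen after these sequences had been read, were searched on both strands by their letters alone, and shares were taken over 32851 such sequences of 250 bases. They were TTTGGCGC (E2F, 0.417% of sequences), TTTCCCGC (E2F, 0.895%), the NRF1 motif (0.782%), TGACGTCA (the cyclic AMP response element, 1.55%), CCAAT (33.9%), GGGCGG (GC box, 32.7%) and CCGGAAG (ETS, 6.91%). The core TGACG of the response element, which overlaps TGACGTCA, was searched as well and occurs in 17.8%. *Casp8ap2* held TTTGGCGC once, CCAAT 2 times and the GC box 3 times. *Ing3* and *Topors* both held TGACGTCA once, 45 and 52 bases before the start counted from its first letter, and *Ing3* also held 1 CCAAT and 1 GC box. The *Phf14* sequence shown held 0 of these motifs, while a further *Phf14* start 18.1 kb into the gene had the NRF1 motif and the GC box once each. A further *Ing3* start, just downstream of the one shown, had TTTGGCGC once, so these letters stood before a gene that rose and before one that did not pass. These matches describe the letters in the windows. CpG dinucleotides numbered 25 for *Casp8ap2*, 22 for *Phf14*, 21 for *Ing3* and 10 for *Topors*, against a median of 6 over all such sequences.

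*Chd7* (ENSMUSG00000041235.13, chromosome 4, 8690406 to 8867659, + strand) encodes an ATP-dependent remodeler of the chromodomain helicase family, known for its loss in CHARGE syndrome. It was the longest gene, spanning 177 kb, and the least abundant. Its normalized counts (CPM, with library totals and TMM factors over all tested rows) were 51.7, 45.9 and 57.0 in the UN-SCC679 libraries. They were 81.6, 74.1 and 84.3 in the UN-SCC680 libraries. Every UN-SCC680 library lay above every UN-SCC679 library. The log2 fold change was 0.64 (standard error 0.084; edgeR's quasi-likelihood test, adjusted p = 8.31e-09), the largest of the 6 genes and higher than that of 87.1% of all tested rows. UN-SCC679 held 598 counts of it and UN-SCC680 1020, for which counting alone gives a standard error of 0.074.

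*Phf14* (ENSMUSG00000029629.18, chromosome 6, 11907808 to 12081204, + strand) encodes a PHD finger protein that binds histone H3. Its CPM was 315, 300 and 303 in UN-SCC679 and 422, 437 and 430 in UN-SCC680. The libraries of the 2 lines did not overlap, and those of one line lay close together. The log2 fold change was 0.49 (standard error 0.041, adjusted p = 4.50e-14 from edgeR).

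*Ing3* (ENSMUSG00000029670.13, chromosome 6, 21949570 to 21976037, + strand) encodes the other PHD finger reader, a subunit of the NuA4/Tip60 histone acetyltransferase complex. Its CPM was 116, 123 and 109 in UN-SCC679 and 112, 120 and 123 in UN-SCC680. The libraries of the lines overlapped. The log2 fold change was 0.028 (95% interval -0.099 to 0.15, adjusted p = 0.727 from edgeR), and its sign turned under scaling by library size alone (-0.0012) and within the segments (-0.21). The upper bound of its interval on all tested rows lies below the lower bounds of the 4 genes that rose.

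*Rnf20* (ENSMUSG00000028309.15, chromosome 4, 49632006 to 49656887, + strand) encodes an E3 ligase that, with *Rnf40*, attaches a single ubiquitin to histone H2B in transcribed genes. Its CPM was 683, 650 and 670 in UN-SCC679 and 923, 918 and 898 in UN-SCC680, again without overlap. The log2 fold change was 0.45 (standard error 0.034, adjusted p = 1.52e-15 from edgeR). It was the best measured of the 6, with 7792 and 11644 counts in the 2 lines.

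*Topors* (ENSMUSG00000036822.7, chromosome 4, 40259601 to 40269850, - strand) encodes a RING ligase for ubiquitin and SUMO that was found as a partner of topoisomerase I and p53. Its CPM was 675, 677 and 705 in UN-SCC679 and 635, 636 and 635 in UN-SCC680. All UN-SCC680 libraries lay below all UN-SCC679 libraries, but the gap was small. The log2 fold change was -0.11 (95% interval -0.18 to -0.039, adjusted p = 0.00684 from edgeR), which misses the threshold of 5e-05. *Topors* was also the one gene that shares exon sequence with another row, 113 bases (2.93% of its exon bases) with *2010003O02Rik* on the opposite strand, and whether reads were counted by strand is not stated. That row held 300 counts in all 6 libraries together, against 8010 and 8106 for *Topors* in the 2 lines.

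*Casp8ap2* (ENSMUSG00000028282.13, chromosome 4, 32615451 to 32653265, + strand) encodes a scaffold protein of histone locus bodies, where replication-dependent histone mRNA is made and cut. Its CPM was 495, 484 and 483 in UN-SCC679 and 633, 632 and 677 in UN-SCC680. The libraries of the lines did not overlap, with one UN-SCC680 library above the other two. The log2 fold change was 0.41 (standard error 0.038, adjusted p = 6.10e-13 from edgeR). Non-overlapping CPM, as seen for 5 of the 6 genes, occurred in 62.2% of all tested rows and in 77.3% of those in the segments.

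**Figure D1:**
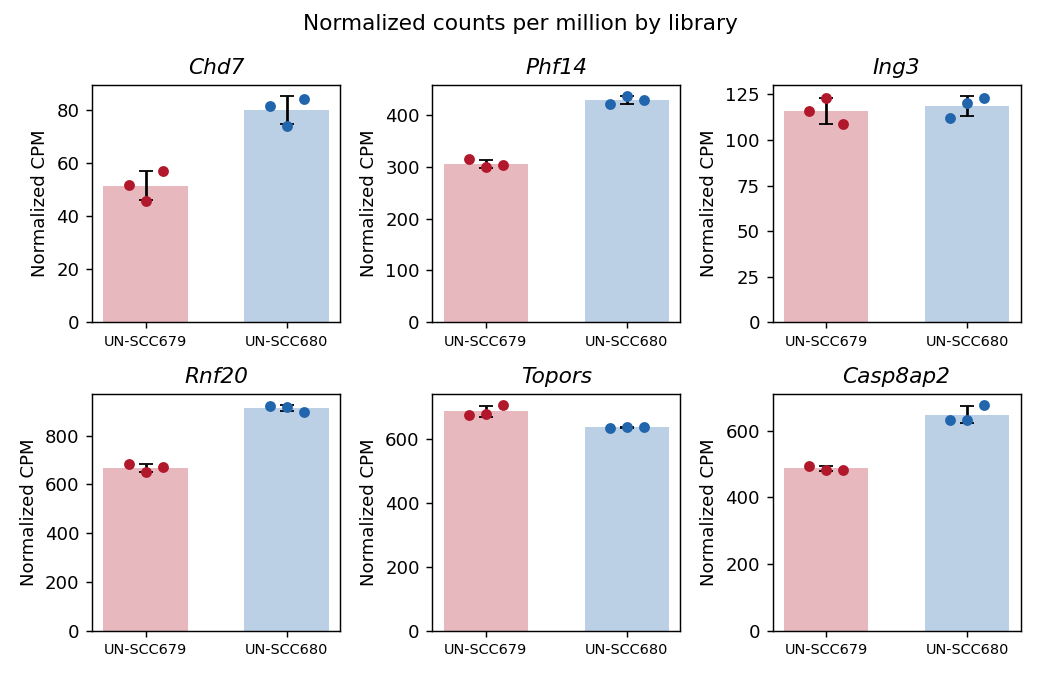
Normalized counts (CPM, TMM over all tested rows) of the 6 genes in each library (points). Bars give the mean of a line and error bars its SD (n = 3 libraries). The 2 lines separate for Chd7, Phf14, Rnf20 and Casp8ap2, overlap for Ing3, and lie close for Topors, where UN-SCC680 is the lower.

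The size of these differences depended on which rows set the scale. The median log2 fold change was -0.0028 over the 8987 tested rows, 0.29 over the 254 of the chromosome 4 segment and -0.017 over the 89 of the chromosome 6 segment. Scaling within the segments lowered the log2 fold change of their rows by a median of 0.24. It left *Phf14* at 0.25 and *Rnf20* at 0.22, both still past the threshold. *Chd7* came to 0.41 (adjusted p = 0.000123) and *Casp8ap2* to 0.17 (adjusted p = 6.37e-05), both short of it. *Topors* came to -0.35 (adjusted p = 1.66e-10) and then passed it as lower in UN-SCC680, and *Ing3* came to -0.21 (adjusted p = 0.00456). Under that scaling 46.6% of 341 rows differed, and the share of calls that were higher in UN-SCC680 went from 71.4% of 185 to 45.3% of 159. That scaling centers the segment rows by construction (median 0.0018), and the second split follows from the centering. On the scale of the segment rows, the 4 genes that rose on the first scaling lay 0.17 to 0.41 log2 units higher in UN-SCC680.

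**Figure D2:**
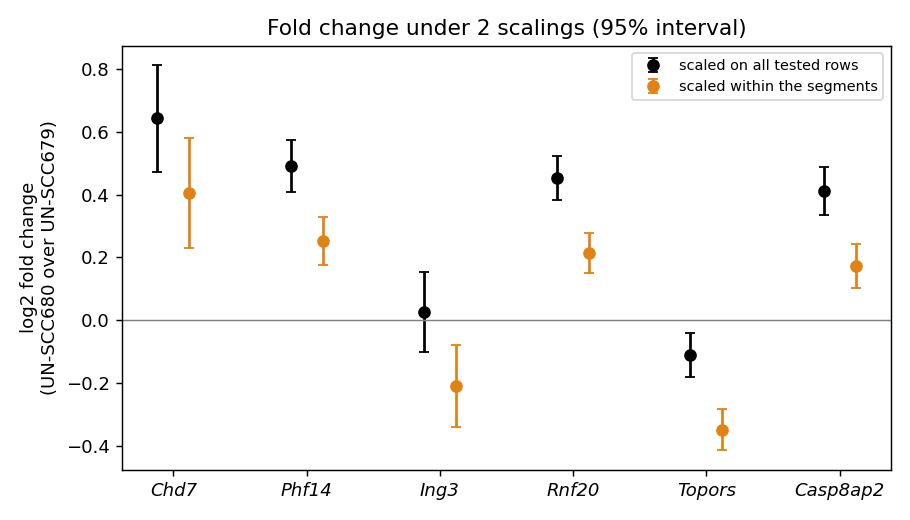
Log2 fold change of each gene in UN-SCC680 over UN-SCC679 with its 95% interval from edgeR, scaled on all tested rows (black) or within the segments of chromosomes 4 and 6 (orange). Each orange point lies below its black point, Ing3 and Topors end below 0, and the other 4 genes stay above it.

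**Figure D3:**
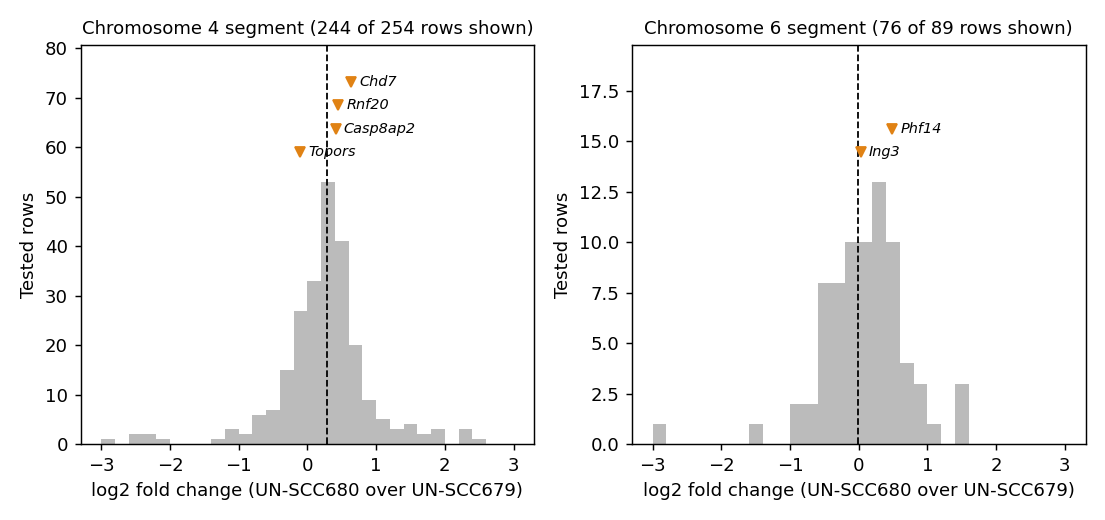
Histograms of the log2 fold change (UN-SCC680 over UN-SCC679, scaled on all tested rows) of the tested rows of each segment. A dashed line marks the median and triangles mark the 6 genes, whose height has no meaning. Rows beyond 3 log2 units are left out, so 244 of 254 and 76 of 89 rows are drawn, and the genes sit within the main body of both histograms.

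Ratios between 2 of the genes within one library do not depend on the scale. Of the 15 pairs, 8 had ratios that did not overlap between the lines, against 71.2% of 46056 pairs of segment rows with at least 10 counts in every library. All 8 set *Chd7*, *Phf14*, *Rnf20* or *Casp8ap2* against *Topors* or *Ing3*. The ratio of *Rnf20* to *Topors*, per base of exon, was 0.535, 0.508 and 0.502 in UN-SCC679 and 0.769, 0.763 and 0.748 in UN-SCC680, 1.48 times as high. That of *Chd7* to *Topors* was 1.68 times as high and that of *Casp8ap2* to *Ing3* was 1.30 times as high, the extremes of the 8. The 6 pairs among *Chd7*, *Phf14*, *Rnf20* and *Casp8ap2* all overlapped between the lines. *Phf14* to *Rnf20*, for example, was 0.210, 0.210 and 0.206 in UN-SCC679 and 0.208, 0.216 and 0.218 in UN-SCC680. The ratio of *Ing3* to *Topors* also overlapped, at 0.138, 0.146 and 0.124 against 0.142, 0.152 and 0.156. With 3 libraries against 3, an exact two-sided permutation test cannot give a p under 0.1, so no pair was tested. Each of the 8 sets a gene that passed the threshold against one that did not, so these ratios describe the same differences without a scale and add no separate evidence.

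**Figure D4:**
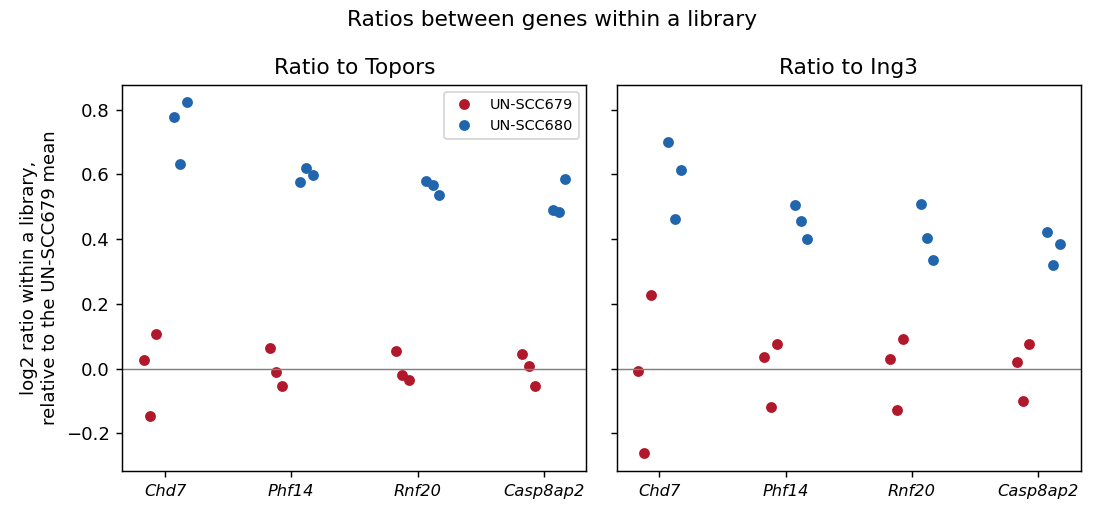
Log2 ratio of Chd7, Phf14, Rnf20 and Casp8ap2 to Topors (left) and to Ing3 (right) within each library, relative to the mean ratio in UN-SCC679, with one point per library. All UN-SCC680 points lie above all UN-SCC679 points in each of the 8 comparisons, and the spread is widest for Chd7.

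Levels of different genes were compared as RPKM, the normalized CPM (with TMM factors) divided by exon length, using the exon length in the table, which covers all isoforms of a gene. *Topors* was the most abundant, at 178 ± 4.35 RPKM in UN-SCC679 libraries and 165 ± 0.209 in those of UN-SCC680 (SD, n = 3 per line). *Rnf20* followed at 91.6 ± 2.30 and 125 ± 1.81 RPKM, and *Casp8ap2* at 71.4 ± 1.04 and 94.9 ± 3.76 RPKM. *Chd7* was lowest in both lines, at 3.74 ± 0.403 and 5.80 ± 0.386 RPKM. *Ing3* and *Phf14* lay between and changed places, with *Ing3* ahead in UN-SCC679 (24.2 ± 1.48 against 19.1 ± 0.496 RPKM) and *Phf14* ahead in UN-SCC680 (26.8 ± 0.448 against 24.7 ± 1.16 RPKM). No neighbors in either order overlapped in their 3 libraries, although the place of a gene also depends on the length it is divided by. Among tested segment rows, 85.4% had a lower RPKM than *Topors* in UN-SCC679 and 15.5% had a lower one than *Chd7*.

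By place, the nearest tested rows on either side of the 6 genes covered both directions. *Ndufa4*, a mitochondrial respiratory protein gene 7.52 kb before the start of *Phf14*, rose with a log2 fold change of 0.37. *Ddx58*, the RIG-I sensor of viral RNA, whose start lies 55.8 kb from that of *Topors* in the table, fell by 1.07 on the log2 scale, and *2010003O02Rik*, the row that shares exon sequence with *Topors*, rose by 1.61. Of the 12 nearest rows, 5 passed the threshold, against 30.4% of all tested rows and 53.9% of those in the segments. *Mdn1*, a ribosome assembly gene 41.7 kb after the start of *Casp8ap2*, had 0.037 and did not pass, and *Bach2*, a transcription factor gene 377 kb before it, had 0.45 at a lower level and did not pass (adjusted p = 0.000393 from edgeR). *Fam3c*, a secreted factor gene 357 kb after *Ing3*, rose with 0.55. The rows next to *Rnf20*, *Zfp189* and *Grin3a*, had log2 fold changes of 0.19 and -0.70 and did not pass. The nearest tested row before *Ing3*, ENSMUSG00000106885.2 at 2632 kb, had 0.40 (adjusted p = 0.000259 from edgeR). Low rows lay next to *Chd7*, where *Gm11809* (-0.74) did not pass and *Gm11816* rose by 4.20 from a level that reached 3.68 CPM in the higher line, and after *Phf14*, where *Gm6578* (-0.59) did not pass.

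By size of the difference, the segment genes nearest to *Rnf20* were *Ggh* and *Chmp5*, with log2 fold changes of 0.45 each, over 6 libraries. Those nearest to *Chd7* were *B4galt1* (0.64) and *Dctn3* (0.65), and those nearest to *Casp8ap2* were *Ndufb6* (0.42) and *Dnajb5* (0.42). For *Phf14* they were *2610301B20Rik* and *Mms22l* (0.49 each). *Gm5874* (0.027) and ENSMUSG00000097616.8 (0.030), a row without a symbol, were nearest to *Ing3*, and *Erp44* and *Usp45* (-0.11 each) to *Topors*. These genes were picked for their small difference, so its size (at most 0.0086 log2 units) follows from the choice.

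A list of 20 other genes of chromatin and the transcription machinery in the same segments was read beside them. Of these, 16 passed the filter on low counts, and the 4 others (*Runx1t1*, *Prdm13*, *Tox* and *Arid3c*) had at most 13 counts in any library. The list was chosen with earlier results of these data known, and it does not hold every such gene of the segments. Among DNA-binding factors left out, *Bach2* (log2 fold change 0.45), *Plag1* (0.59), *Creb3* (0.25), *Zfp189* (0.19), *Zfp800* (0.16), *Zbtb5* (0.10) and *Nr4a3* (-0.024) did not pass. *Klf4*, also left out, rose (3.26). The counts that follow hold for the listed genes only. Of the 16, 11 rose in UN-SCC680, 0 fell and 5 did not pass. Rows called higher made up 15.3% of all tested rows and 38.5% of those in the segments. They made up 42.9% on the chromosome 4 segment, where all of the 16 but *Snd1* lie. The median log2 fold change of the 16 was 0.46, against -0.0028 over all tested rows. That median was 0.23 over the segment rows and 0.29 over those on chromosome 4. The largest rises were those of *Pnrc1*, a nuclear receptor coactivator, from 101 ± 3.94 to 201 ± 11.5 CPM, and *Zfp292*, a zinc finger factor, from 425 ± 13.8 to 763 ± 6.97 CPM (SD, n = 3 each). *Polr1e*, a subunit of RNA polymerase I, and *Snd1*, a coactivator and RNA-binding nuclease, had the lowest log2 fold changes, -0.24 and -0.12, and did not pass. The others that did not pass, named after their values were seen, were *Tex10* (0.075), *Ikbkap* (0.14) and *Akirin2* (0.22). With scaling within the segments, 9 of the 16 were higher, 2 (*Polr1e* and *Snd1*) were lower, and the median was 0.22. Under that scaling 21.1% of segment rows were called higher and 25.5% lower.

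Since *Casp8ap2* serves histone mRNA in S phase, 9 genes of the segments were listed under replication and S phase. The list is broad and also holds genes of DNA repair, telomeres and cell division. Of the 9, 3 (*Orc3*, *Smc2* and *Mms22l*) are also in the list above. All 9 were tested, 8 rose and *Pot1a*, a telomere-binding protein gene named after its value was seen, did not pass (log2 fold change 0.21, adjusted p = 0.000421 from edgeR). This list too was chosen with earlier results of these data known, and it does not hold every such gene of the segments. Among repair genes left out, *Rad23b* (-0.039) and *Xpa* (0.23) did not pass, while *Fancg* (0.99) and *Aptx* (0.35) rose. Rows called higher made up 15.3% of all tested rows and 38.5% of those in the segments. They made up 42.9% on the chromosome 4 segment, where all of the 9 but *Rpa3* and *Pot1a* lie. The median log2 fold change of the 9 was 0.49, against 0.23 over the segment rows and 0.29 over those on chromosome 4. *Rad54b*, a recombination ATPase, had the largest, from 108 ± 2.59 to 183 ± 6.58 CPM, and *Nbn*, part of the complex that senses DNA breaks, followed from 191 ± 10.5 to 284 ± 28.2 CPM (SD, n = 3 each). *Orc3*, of the origin recognition complex, and *Rpa3*, of the single-strand binding complex, each had 0.50. Scaling within the segments left 5 of the 9 past the threshold, all higher, and a median of 0.25. Under that scaling 21.1% of segment rows were called higher. A list of 40 partners and relatives of the 6 genes, among them *Rnf40*, *Npat*, *Kat5* and the other Chd and Ing genes, had 0 members in the segments, so it was not analysed here.

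**Figure D5:**
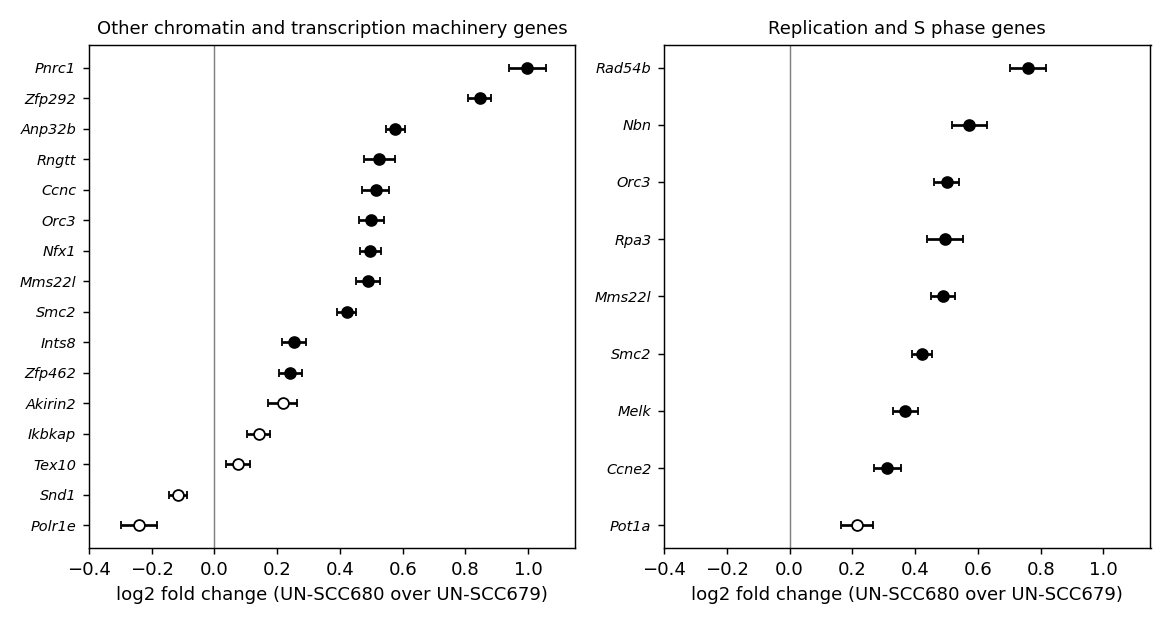
Log2 fold change (UN-SCC680 over UN-SCC679, scaled on all tested rows) of the tested genes of both lists, with the standard error from edgeR. Filled points passed the threshold of 5e-05 and open points did not. In all, 11 of 16 genes of the chromatin and transcription list and 8 of 9 of the replication and S phase list are filled. Each filled point lies above 0. Rows called higher made up 15.3% of all tested rows and 38.5% of those in the segments.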

How the data were processed

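Each cell line had 3 RNA libraries, grouped by sample title. The table deposited by the authors holds whole-number read counts for each Ensembl identifier, not normalized, beside the position of every exon and the gene length in bases. The submitters' processing notes name featureCounts and mm10. The paper's methods name Trimmomatic and Kallisto pseudoalignment to mm10 (GRCm38). Versions and annotation of the counter are not given in the sources used here. Library totals were 3568293 to 4381885 counts, and 0 columns of values were left unused. Symbols were matched to 31021 of 55359 identifiers.

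The 6 genes and both lists were chosen with earlier results of these data known. Rows were filtered with filterByExpr (8987 kept, 343 in the segments), scaled by TMM and tested with edgeR's quasi-likelihood test without covariates. Benjamini-Hochberg adjustment was made over all tested rows, and rows were called at an adjusted p under 5e-05. The study's text gives this limit for each line against normal lung cells, not for one line against the other. Its volcano plots also mark a log2 fold change limit, which was not part of the main calls here. Most rows outside the segments lie at shifted positions. They served for scaling, adjustment and the background shares, percentiles and medians over all tested rows. Standard errors were derived from F statistics. Named were the 6 genes, their nearest tested rows, the 2 segment genes of at least 10 CPM with the nearest log2 fold change, and the 4 genes per list with the largest changes in each direction. Listed genes that were filtered out or did not pass were named as well, after their values were seen. Motifs were chosen after the promoter sequences had been read. The test was tested on simulated data. Alternatives were DESeq2, limma-voom, other scalings, filters and thresholds, a replicate block and leaving out each library. The numbers did not pair libraries (correlations of deviations -0.038, -0.00052 and -0.022). Replicates differed by more than sampling noise (chi-square per degree of freedom 1.12 to 1.65). The common biological coefficient of variation that edgeR estimated was 3.12%. Fits used edgeR 4.0.16, DESeq2 1.42.0 and limma 3.58.1 under R 4.3.3. Tables and figures used pandas 2.3.3, NumPy 2.4.6, SciPy 1.17.1 and matplotlib 3.10.9 under Python 3.11.15.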

Additional observations from a re-analysis of the deposited data

How the results depend on the processing

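Under DESeq2, limma-voom, RLE and upper quartile scaling, both filters, removal of mitochondrial rows and the replicate block, the 6 genes had the same sign and the same calls. Scaling by library size alone turned *Ing3* to -0.0012. Scaling and testing within the segments turned it to -0.21, took *Chd7* (0.41) and *Casp8ap2* (0.17) out of the calls and *Topors* (-0.35) into them. This scaling left 159 differing rows and 5 genes of the replication list. *Topors* (-0.11) also passed at an adjusted p-value under 0.05, where 5248 rows differed, but not without UN-SCC679 replicate 3 (adjusted p = 0.0585 from edgeR) or with no filter on low counts (adjusted p = 0.115 from edgeR). With an absolute log2 fold change over 1 required as well, 1024 rows and 56 segment rows differed, against 0 of the 6 genes, 0 of the chromatin list and 0 of the replication list, since *Chd7* (0.64), *Phf14* (0.49), *Rnf20* (0.45) and *Casp8ap2* (0.41) lie below 1.

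With one library left out in turn, *Chd7* ranged from 0.56 to 0.72, *Phf14* from 0.47 to 0.51, *Rnf20* from 0.43 to 0.47, *Casp8ap2* from 0.39 to 0.44, *Topors* from -0.12 to -0.091 and *Ing3* from -0.015 (without UN-SCC679 replicate 3) to 0.075, and the 4 calls remained. Differing rows numbered 2226 to 2611. The replicate block gave 2523 rows and the same 4 genes; *Topors* had -0.11 (adjusted p = 0.0161 from edgeR) in that paired fit. The RPKM of *Topors* in UN-SCC680 came to 163 by library size, outside the small spread of its libraries. Depth limits *Chd7* most, with 192 to 357 counts per library.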
